A study of Homo sapiens with 11 samples.

Results

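The sites that the transcription factors MYRF and FOS occupied were compared in CFPAC1, a human cell line derived from a pancreatic ductal adenocarcinoma, by chromatin immunoprecipitation followed by sequencing (ChIP-seq). The comparison used 4 of the 10 deposited peak lists, 2 for each factor. MYRF peaks numbered 4743 and 4041 in replicates 1 and 2, and FOS peaks 29087 and 36349. Overlapping peaks were merged, and a merged interval with a peak of both replicates was kept as a reproducible region, which left 2793 MYRF and 26211 FOS regions. A MYRF region overlapped by a FOS region by at least 1 bp is called joint, and one with no peak in either FOS list MYRF-only. FOS regions were divided in the same way.

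MYRF is made as a protein of the endoplasmic reticulum (ER) membrane, assembles into trimers and cuts itself, after which its DNA-binding part moves to the nucleus. It is best known as the factor that switches on myelin genes in oligodendrocytes. FOS pairs with JUN proteins to form AP-1, a factor induced by growth signals that binds enhancers in epithelial and carcinoma cells. The series concerns a need of pancreatic cancer cells for MYRF in keeping the ER in balance, and the FOS lists allow its sites to be set beside those of a widespread enhancer factor.

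The MYRF libraries came from the original CFPAC1 line and an antibody made by the submitters. The FOS libraries came from a clone of CFPAC1 isolated by dilution after infection with a lentiCRISPRv2 vector (labelled lentiCRIPSv2), with a Sigma antibody, so factor, antibody and cell source changed together and cannot be told apart. Further readouts were acetylation of histone H3 at lysine 27 (H3K27ac, a mark of active enhancers and promoters), in 2 libraries labelled MYRFWT from such a clone and 2 labelled MYRFKO from a clone with Cas9 and a guide against MYRF, and MYRF in 2 libraries of HPAF2, another pancreatic adenocarcinoma line. Each clone group is treated as 1 clone, and between the groups the clone changes together with the MYRF gene. CFPAC1 cells grew in IMDM and HPAF2 cells in RPMI, both with fetal bovine serum. The labels do not say that replicates were separate cultures, so their spread may be technical. An H3K27ac peak lay within 1 kb of an end of 8 of 9 epithelial and ductal marker genes in both control lists, the exception being CFTR. The same held for 2 and 3 of 5 blood, 1 and 0 of 4 endothelial, 1 and 1 of 5 fibroblast and 2 and 2 of 5 neural genes. Depth is unknown because the lists hold no read counts. A comparison of 2 libraries with 2 cannot reach an exact permutation p under 0.05, so values are given per library and no p is given. Ranges after a percentage are 95% Wilson intervals and cover the counting of regions only.

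Promoter sequences from RefSeq (GRCh38.p14) show the DNA under a few of these sites. Each stretch lies before a gene start, is written 5′ to 3′ on the strand of the gene, and was chosen because both MYRF summits fell in the promoter window and a searched motif occurred there. Capitals mark a match to the AP-1 motif TGANTCA or to the MYRF motif CTGGNAC, on either strand. The first 4 are joint sites and the last 4 are MYRF-only.
ERLN: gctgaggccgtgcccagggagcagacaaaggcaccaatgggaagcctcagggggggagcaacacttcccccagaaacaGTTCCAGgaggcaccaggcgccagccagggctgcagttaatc
FAM107B: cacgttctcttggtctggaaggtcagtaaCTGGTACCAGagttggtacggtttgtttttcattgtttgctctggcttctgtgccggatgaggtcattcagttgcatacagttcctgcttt
IL15RA: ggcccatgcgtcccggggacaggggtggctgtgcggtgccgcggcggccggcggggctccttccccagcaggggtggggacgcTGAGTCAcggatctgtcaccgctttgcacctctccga
SMAD3: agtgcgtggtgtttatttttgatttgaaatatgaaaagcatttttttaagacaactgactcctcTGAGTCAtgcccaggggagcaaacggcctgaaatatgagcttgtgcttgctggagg
RGS3: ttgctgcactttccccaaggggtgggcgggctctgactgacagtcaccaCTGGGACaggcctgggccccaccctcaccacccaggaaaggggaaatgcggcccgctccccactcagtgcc
PREPL: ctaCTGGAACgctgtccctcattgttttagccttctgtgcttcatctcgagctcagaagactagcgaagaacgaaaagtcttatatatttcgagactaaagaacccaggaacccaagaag
SEC11A: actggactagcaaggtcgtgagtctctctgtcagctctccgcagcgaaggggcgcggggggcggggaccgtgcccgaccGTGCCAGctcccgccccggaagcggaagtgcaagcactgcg
PUS10: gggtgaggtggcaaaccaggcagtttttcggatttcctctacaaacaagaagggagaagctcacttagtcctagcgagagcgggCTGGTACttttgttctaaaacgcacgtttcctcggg

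The stretch of ERLN, which encodes a small ER membrane protein, lies at chr17:75646131-75646250 on the plus strand. Its capitals are a MYRF match centred 5 bp from the mean MYRF summit, and the site had MYRF fold enrichments of 57.5 and 58.1 in replicates 1 and 2 and FOS fold enrichments of 7.99 and 9.49. At FAM107B (chr10:14572130-14572249, minus strand) the capitals are overlapping MYRF matches 14 and 11 bp from the MYRF summit, with MYRF at 24.1 and 23.5 and FOS at 6.19 and 5.13. The capitals are AP-1 matches at IL15RA, a cytokine receptor chain (chr10:5977630-5977749, minus strand), and at a start of SMAD3, a transducer of TGF-beta signals (chr15:67125622-67125741, plus strand). MYRF stood at 6.83 and 6.19 and FOS at 13.97 and 12.9 at the IL15RA site. At the SMAD3 site MYRF stood at 4.32 and 4.92 and FOS at 9.29 and 9.93. The stretches follow the MYRF summits and need not hold the FOS summit. Mean MYRF and FOS summits lay 413 bp apart at ERLN, 67 bp at FAM107B, 68.5 bp at IL15RA and 133.5 bp at SMAD3. Among the MYRF-only sites, RGS3, a regulator of G-protein signalling (chr9:113580808-113580927, plus strand), had MYRF at 38.3 and 40.6, and PREPL, a serine hydrolase (chr2:44361625-44361744, minus strand), at 26.0 and 23.8. SEC11A, a catalytic subunit of the signal peptidase of the ER (chr15:84716174-84716293, minus strand), had 8.03 and 8.44, and PUS10, a pseudouridine synthase (chr2:61017261-61017380, minus strand), 9.09 and 9.66. In all 4 MYRF-only stretches shown the capitals are a MYRF match, 12 to 30 bp from the mean summit. They were picked from more such stretches and do not stand for the class. Among those not shown, the MYRF match at PI16 lay 116 bp from the summit. At SEPTIN4 and NDUFB3 the stretch held an AP-1 match and no MYRF match.

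Promoter windows ran from 250 bases before to 50 after a gene start, and those holding both summits of a region were searched. These windows held 47 of 1812 joint MYRF, 67 of 791 MYRF-only, 28 of 1783 joint FOS and 368 of 23353 FOS-only regions. The shares below therefore describe promoter sites and not the classes as a whole. The AP-1 motif occurred in 21 of 53 (39.6%) windows with the MYRF summits of a joint site and 6 of 78 (7.69%) with those of a MYRF-only site. It occurred in 17 of 31 (54.8%) windows with the FOS summits of a joint site, 233 of 394 (59.1%) with those of a FOS-only site and 7.71% of all 35116 windows. Among these promoter sites the MYRF-only share was thus near that of any promoter. Joint promoter sites stood near FOS-only ones when windows were chosen by FOS summits. The MYRF motif occurred in 15 of 53 (28.3%) windows with MYRF summits of joint and 25 of 78 (32.1%) of MYRF-only sites, in 7 of 31 (22.6%) with FOS summits of joint and 76 of 394 (19.3%) of FOS-only sites, and in 18.5% of all windows. Matches of the motifs were counted separately, so a window can hold both. A match is a description of the sequence and does not show that a factor bound there, and windows can share a gene or a region.

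Most MYRF regions were joint, and few FOS regions were. Of the 2793 MYRF regions, 1812 were joint (64.9%), 190 met a FOS peak but no reproducible FOS region (6.80%, 5.93 to 7.80), called FOS in 1 list below, and 791 were MYRF-only (28.3%, 26.7 to 30.02). Of the 26211 FOS regions, 1783 were joint (6.80%), 1075 had MYRF in 1 list (4.10%, 3.87 to 4.35) and 23353 were FOS-only (89.1%, 88.7 to 89.5). The numbers of joint regions differ because 1 FOS region can hold several MYRF regions. With a −log10 q of at least 10 in every list, 574 of 1133 MYRF regions were joint (50.7%).

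The rank of a region was the percentile of its strongest peak by fold enrichment within the peak list of its replicate, so that folds were never compared between lists. For MYRF the classes lay close together. The median percentile was 70.6 and 65.5 at joint regions in replicates 1 and 2, 61.8 and 55.2 at MYRF-only regions and 71.3 and 65.4 at regions with FOS in 1 list. A joint region ranked above a MYRF-only region in 56.2% and 55.9% of all such pairs. The mean difference of the medians, 9.55 points, was 2.996 without the runs of weak MYRF-only regions described below, and the order turned, to -4.53 points, with a −log10 q of at least 10. It was 16.98 points without MYRF replicate 1 and 19.5 without MYRF replicate 2, where every peak of the remaining list counts as a region.

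For FOS the difference was wider and went the same way in both replicates. Joint FOS regions had median percentiles of 77.2 and 81.5, and FOS-only regions 51.8 and 61.1. A joint region ranked above a FOS-only region in 68.8% and 68.7% of pairs. FOS regions with MYRF in 1 list lay between, at 72.6 and 77.6. The mean difference of 22.9 points was 13.1 with a −log10 q of at least 10.

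By deciles of FOS fold enrichment, the joint share was 2.63% (2.08 to 3.32) and 2.86% (2.29 to 3.57) in the lowest decile of the replicates and 17.4% (15.96 to 18.9) and 17.02% (15.6 to 18.5) in the highest. By deciles of MYRF fold enrichment it was 63.2% (57.4 to 68.6) and 62.1% (56.3 to 67.6) in the lowest and 71.3% (65.8 to 76.3) and 72.0% (66.5 to 77.0) in the highest, where the intervals overlap. The lowest MYRF share, 56.3%, stood in decile 2 of replicate 1, so that more MYRF regions were joint than not at every strength. Of the 100 MYRF regions with the highest percentile in their weaker replicate, 76 were joint, 9 had FOS in 1 list and 15 were MYRF-only.

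**Figure D1:**
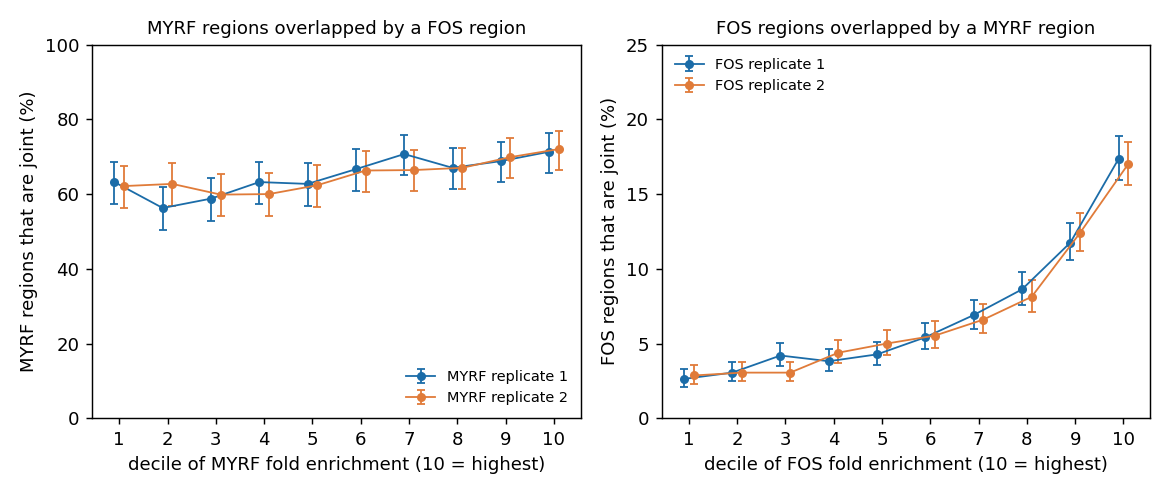
Share of regions that are joint (%, vertical axes) by decile of fold enrichment (horizontal axes), for MYRF regions (left) and FOS regions (right), with 1 line per replicate and 95% Wilson intervals as bars; the vertical scales differ. The FOS curves climb from 2.63% and 2.86% to 17.4% and 17.02%, and the MYRF curves run from 63.2% and 62.1% to 71.3% and 72.0%.

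Where both factors were present, MYRF rank and FOS rank were nearly unrelated. Across the 1812 joint MYRF regions the Spearman correlation of MYRF with FOS percentiles was 0.0619 and 0.0627 for MYRF replicate 1 with FOS replicates 1 and 2, and 0.0324 and 0.0327 for MYRF replicate 2. Between replicates at these regions it was 0.785 for MYRF and 0.900 for FOS. These are correlations across sites of the same libraries, given as a description.

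**Figure D2:**
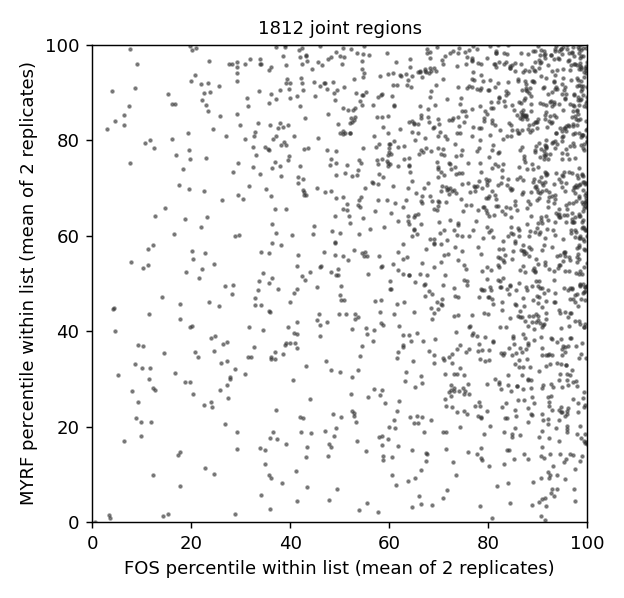
Mean percentile within the MYRF lists (0 to 100) set against that within the FOS lists (0 to 100) at the 1812 joint regions, each point being a region. The points spread over the whole MYRF range at any FOS percentile, with Spearman correlations of 0.0324 to 0.0627 over the 4 pairs of libraries.

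Joint sites were ordered by the lowest of their 4 percentiles. The first lay 14511 bp from ARSI, an arylsulfatase gene (chromosome 5, 150316992 to 150317746 in GRCh38, positions counted from 1), with MYRF at 37.3 and 35.7 and FOS at 24.9 and 28.9. The second lay inside STK40, a kinase-like gene (chromosome 1, 36350570 to 36351592), at 33.8 and 31.6 for MYRF and 18.9 and 24.3 for FOS. The next with a coding gene within 50 kb lay 18567 bp from KRT20, a keratin of intestinal epithelium (chromosome 17, 40903112 to 40904049), with MYRF at 31.01 and 30.98 and FOS at 17.6 and 19.1. A site inside NEK6, a mitotic kinase, had MYRF at 56.4 and 52.9 and FOS at 17.2 and 20.6, and one 20888 bp from RAB10, a small GTPase of vesicle traffic, 41.4 and 39.8 against 17.1 and 17.8. Sites near ACTBL2, a beta-actin-like gene (20.9 and 23.6 for MYRF, 19.9 and 22.6 for FOS), and near the histone gene H4C8 (22.1 and 23.1, 15.1 and 17.6) also belonged to the first 10, and the remaining 3 had no coding gene within 50 kb. All 10 had an H3K27ac peak in both control lists, as did 91.8% of all joint MYRF regions.

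Some joint sites ranked high for 1 factor and low for the other. A site near TM4SF4, a membrane protein gene (chromosome 3, 149473125 to 149474276), stood at percentiles 99.7 and 99.7 of the MYRF lists (folds of 44.3 and 44.7) and 18.2 and 21.2 of the FOS lists (3.95 and 4.03). A site near SLX9 on chromosome 21 had MYRF percentiles of 96.0 and 96.0 and FOS percentiles of 9.61 and 8.61, and one near PALD1 on chromosome 10 had 91.9 and 89.9 against 7.32 and 10.1. In the other direction, a site inside NPEPPS, an aminopeptidase gene, had FOS percentiles of 89.1 and 93.7 (folds of 10.2 and 12.98) and MYRF folds of 2.41 and 2.79, near the bottom of those lists. Sites inside THSD4 (10.4 and 11.8 for FOS, 3.01 and 2.48 for MYRF) and TMEM45B (12.8 and 12.1, 3.39 and 3.39) followed. These sites were chosen for this difference, so it is a description. Mean MYRF and FOS summits lay 7.5 bp apart at TM4SF4, 279 bp at SLX9 and 677 bp at PALD1. They lay 8 bp apart at NPEPPS, 835 bp at THSD4 and 388 bp at TMEM45B. Where summits lie far apart, the ranks of the factors can belong to separate positions.

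Summits of MYRF and FOS lay close together at joint sites, but farther apart than summits of replicates of 1 factor. The median distance was 83 and 90 bp from MYRF replicate 1 to FOS replicates 1 and 2, and 81 and 85 bp from MYRF replicate 2. At the same sites it was 42 bp between the MYRF replicates and 45 bp between the FOS replicates. Distances within 50 bp made up 34.3%, 33.002%, 35.9% and 33.8% of sites in the 4 pairs of factors, against 57.2% between MYRF and 55.0% between FOS replicates. The replicate values stand outside the range of the 4 pairs on both measures. Distances over 500 bp made up 4.801% to 5.30% of sites between factors, 0.110% between MYRF and 1.21% between FOS replicates. Replicate summits lie in 1 merged region by definition, whereas regions of the 2 factors need only overlap. A FOS region counts by the summit of its strongest peak, also where several MYRF regions share it. The part of these rules in the long distances was not tested.

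All 4 distances were within 50 bp in 193 of 1812 (10.7%, 9.31 to 12.2) joint sites and over 200 bp in 199 of 1812 (10.98%, 9.62 to 12.51). In the 559 joint sites where both replicate pairs lay within 50 bp, the median distance between the mean summits of the factors was 58.5 bp, against 75 bp over all joint sites. The distance varied little with rank, with medians of 70.5 to 81 bp over 4 classes of MYRF percentile and 68 to 81 bp over 4 classes of FOS percentile. As examples, it was 7.5 bp at the TM4SF4 site given above, 9 bp at the strongest HORMAD2 site, 71 bp at NEK6, 242 bp at KRT20 and 328.5 bp at STK40, and it reached 1900 bp over all joint sites.

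**Figure D3:**
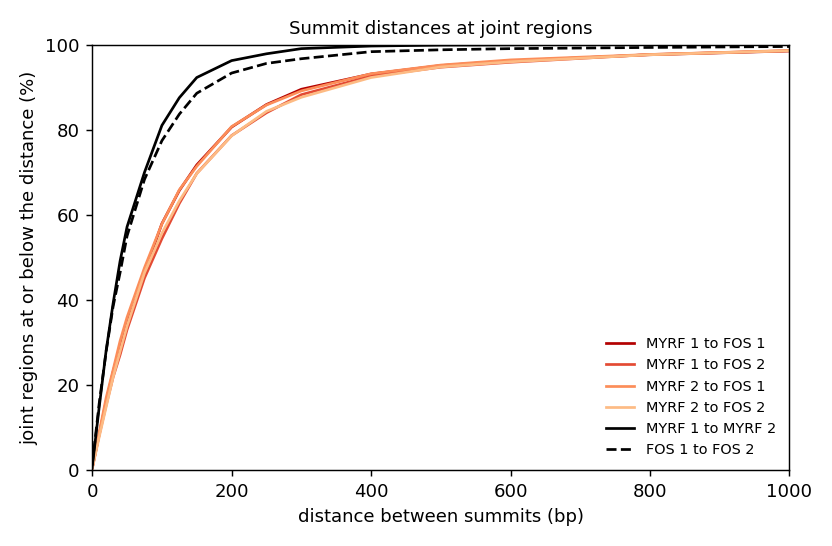
Cumulative share of joint regions (%, vertical axis) by distance between summits (bp, horizontal axis) for the 4 pairs of a MYRF with a FOS replicate and for the replicate pairs of MYRF and of FOS. The 4 curves between factors nearly coincide and reach their medians at 81 to 90 bp, whereas the replicate curves reach theirs at 42 and 45 bp.

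Some genes carried row upon row of weak MYRF-only regions. By a rule chosen after these data were seen (a protein-coding gene whose span holds at least 3 MYRF-only regions and no joint region), 25 genes held 155 such regions, here called runs, or 19.6% (16.98 to 22.5) of the MYRF-only class. DYNC1H1, the heavy chain of cytoplasmic dynein (chromosome 14, 101964573 to 102056443), held 21, with fold enrichments of 3.51 to 7.38 and 2.65 to 7.56 in the replicates. CHD8, a chromatin remodeller, held 14 (4.18 to 8.36 and 4.09 to 8.20), CSE1L, an export factor for importin alpha, 12 (3.18 to 5.30 and 3.50 to 5.94), TPR, a nuclear pore protein, 11, and the helicase gene DHX9 10. TOP2A, a DNA topoisomerase of dividing cells, held 8, CCAR1 7, and EIF3A, KPNB1 and SRRM1 6 each. KMT2A, RBM39 and SUPT16H held 5 each, and the other 12 genes 3 or 4. The median fold of the 155 was 4.59 and 4.75, and the median percentile 36.1 and 35.5.

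H3K27ac and HPAF2 binding, which the rule did not use, were rarer at regions in runs than at MYRF-only regions outside them. An H3K27ac peak of both control lists overlapped 2 of 155 (1.29%, 0.355 to 4.58) regions in runs, against 439 of 636 (69.0%, 65.3 to 72.5) outside. A reproducible HPAF2 region overlapped 1 of 155 (0.645%, 0.114 to 3.56) against 258 of 636 (40.6%, 36.8 to 44.4). The 25 genes held 14 and 19 HPAF2 MYRF peaks, 0.378% and 0.439% of those lists. They held 351 and 280 CFPAC1 MYRF peaks (7.40% and 6.93%), a number the rule itself raises by its choice of genes. The rule also asks for a place inside a gene, and 2 of 155 regions lay within 1 kb of a gene end. With a −log10 q of at least 10, 2 of the 155 regions were kept. The cause of the runs was not tested, and comparisons of rank, H3K27ac, HPAF2 and gene ends are given with and without them.

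**Figure D4:**
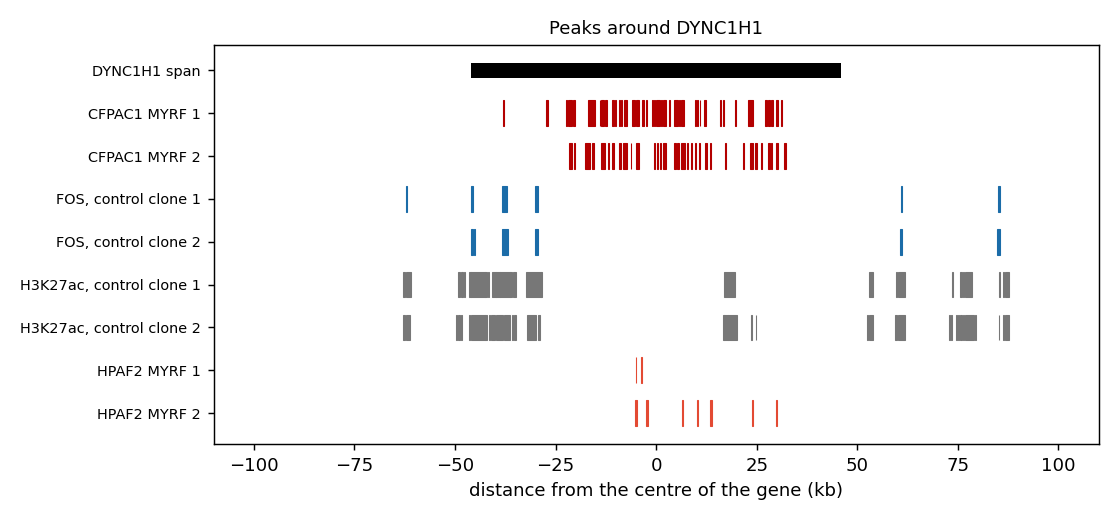
Peaks of 8 libraries around DYNC1H1, with the distance from the centre of the gene on the horizontal axis (kb), 1 row per library, each bar a peak from start to end, and the gene span in black on top. The 43 and 33 CFPAC1 MYRF peaks crowd the middle of the gene, where the FOS lists have no peak, and HPAF2 has 2 and 7 MYRF peaks in the gene.

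Outside runs, some MYRF-only sites were strong too, although the highest MYRF folds stood at joint sites near HORMAD2 (80.9 and 81.3) and SEPTIN9 (74.1 and 72.7). A site inside ANXA4, an annexin that binds membrane lipids (chromosome 2, 69780904 to 69782101), had MYRF folds of 66.7 and 68.6, and the nearest FOS region had its summit 2172.5 bp away with folds of 5.27 and 6.50. At GRAMD1B, an ER sterol carrier, a site with 50.7 and 51.2 had its nearest FOS summit 861 bp away, at 3.26 and 3.10. Next came RGS3 (38.3 and 40.6, 1543 bp to FOS), PDE9A, a cyclic GMP phosphodiesterase (35.7 and 32.7, 8112 bp), ENDOD1 (34.4 and 31.1, 3892 bp) and ZMYND8, a chromatin reader (25.3 and 34.2, 2699.5 bp). The remaining 2 of the first 8 had no gene end within 50 kb and lay inside FRMD4B (39.02 and 32.1) and GRIN2A (33.7 and 28.6). All 8 had a reproducible HPAF2 region, against 40.6% of all MYRF-only regions outside runs and 72.1% of those in the highest of 5 classes of MYRF rank. At PDE9A and GRIN2A there was no H3K27ac peak in any list. Over all MYRF-only regions outside runs the median distance to a FOS summit was 18581 bp, with 3.46% within 1 kb, 34.6% within 10 kb and 75.2% within 50 kb.

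The strongest FOS-only site, on chromosome 20 (63056664 to 63058063), had FOS at 49.0 and 53.4, no coding gene end within 50 kb and no H3K27ac peak in any of the 4 lists. The next lay inside DVL1, a Wnt signal transducer (46.5 and 47.7), UBTD1 (41.8 and 51.7), OTUD7B, a deubiquitinase (38.7 and 47.2), and NPFFR2, a neuropeptide receptor gene (37.1 and 42.1). They were followed by sites near LOC124903407 (34.9 and 41.9) and inside LUZP2 (35.6 and 40.2) and PCCA, a mitochondrial carboxylase subunit (33.4 and 36.0). None of these 8 had a reproducible HPAF2 MYRF region, and 2.43% of all FOS-only regions did.

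H3K27ac peaks covered joint sites more often than sites of either factor alone. In control replicates 1 and 2 the share was 95.3% and 92.4% of joint MYRF regions, 58.4% and 58.9% of MYRF-only regions, and 72.3% and 72.8% of those outside runs. Joint FOS regions stood at 97.2% and 95.2% and FOS-only regions at 77.7% and 70.7%. The knockout lists gave 92.2% and 93.3% for joint MYRF regions, 53.2% and 55.1% for MYRF-only regions (65.7% and 68.2% outside runs) and 71.1% and 73.4% for FOS-only regions. The gaps between joint and single sites were wider than the difference between replicates of a clone in each of these comparisons.

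The share with a peak in both control lists differed by 36.1 points between joint and MYRF-only regions, by 22.8 without runs, by 24.05 with summits within 200 bp in place of overlap and by 10.9 with a −log10 q of at least 10. In the lowest of 5 classes of MYRF rank it was 90.5% (86.98 to 93.2) for joint and 54.3% (45.3 to 63.1) for MYRF-only regions outside runs, and in the highest 95.6% (93.1 to 97.2) and 74.6% (66.2 to 81.5). The H3K27ac peak also ranked higher within its list at joint sites, at a median percentile of 93.4 and 92.7 in the control lists against 87.2 and 88.1 at MYRF-only sites outside runs and 75.5 and 74.8 at FOS-only sites. Joint MYRF sites were wider than MYRF-only sites outside runs, with medians of 407 and 386 bp against 351.5 and 339 bp. Joint FOS sites were wider than FOS-only sites by more, with medians of 718 and 868 bp against 474 and 601 bp. The part of width in these overlaps was not tested.

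Loss of H3K27ac in the knockout clone was rare in all classes. Sites with a peak in both control lists and none in either knockout list made up 13 of 1664 (0.781%, 0.457 to 1.33) joint MYRF sites, 14 of 441 (3.17%, 1.90 to 5.26) MYRF-only sites and 304 of 16047 (1.89%, 1.69 to 2.12) FOS-only sites. The reverse, a peak in both knockout lists and none in control, was seen at 2 of 1629, 2 of 401 and 152 of 15481. The 14 lost MYRF-only sites included those of GRAMD1B (50.7 and 51.2), FGD5 (13.6 and 13.5), FSCN1, the actin bundler fascin (10.6 and 10.8), and CRACDL (9.41 and 11.6). Another (20.4 and 20.5) lay inside TBCE, 35474 bp from the nearest gene end, that of the glycosyltransferase gene B3GALNT2. The 13 lost joint sites included those of KBTBD11 (MYRF 30.1 and 28.2, FOS 7.19 and 8.25), CAMK2A, a calcium-dependent kinase (16.4 and 18.7, FOS 4.67 and 5.34), DSC3, a desmosomal cadherin (5.62 and 6.38, FOS 9.39 and 8.54), and GRAMD1A, a relative of GRAMD1B (4.52 and 5.65, FOS 6.31 and 3.06). An effect of the edited gene and a difference between clones cannot be told apart here.

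MYRF-only sites were found in HPAF2 less often than joint sites. An HPAF2 MYRF peak of replicates 1 and 2 overlapped 55.6% and 58.8% of joint MYRF regions, 35.5% and 39.7% of MYRF-only regions and 43.7% and 48.0% of those outside runs. FOS-only regions stood at 3.50% and 4.27%. A peak of both HPAF2 lists was found at 52.1% (49.8 to 54.4) of joint and 32.7% (29.6 to 36.1) of MYRF-only regions, a difference of 19.4 points that was 11.5 without runs and 2.72 with a −log10 q of at least 10. In the lowest of 5 classes of MYRF rank the share was 35.9% (31.1 to 41.1) for joint and 18.97% (12.9 to 27.05) for MYRF-only regions outside runs, and in the highest 80.4% (76.1 to 84.01) and 72.1% (63.6 to 79.3), where the intervals overlap. HPAF2 MYRF regions with no CFPAC1 MYRF peak lay on a CFPAC1 FOS region in 579 of 1280 (45.2%, 42.5 to 48.0) cases, and those overlapping a CFPAC1 MYRF region in 946 of 1279 (74.0%, 71.5 to 76.3). FOS in HPAF2 was not analysed here.

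**Figure D5:**
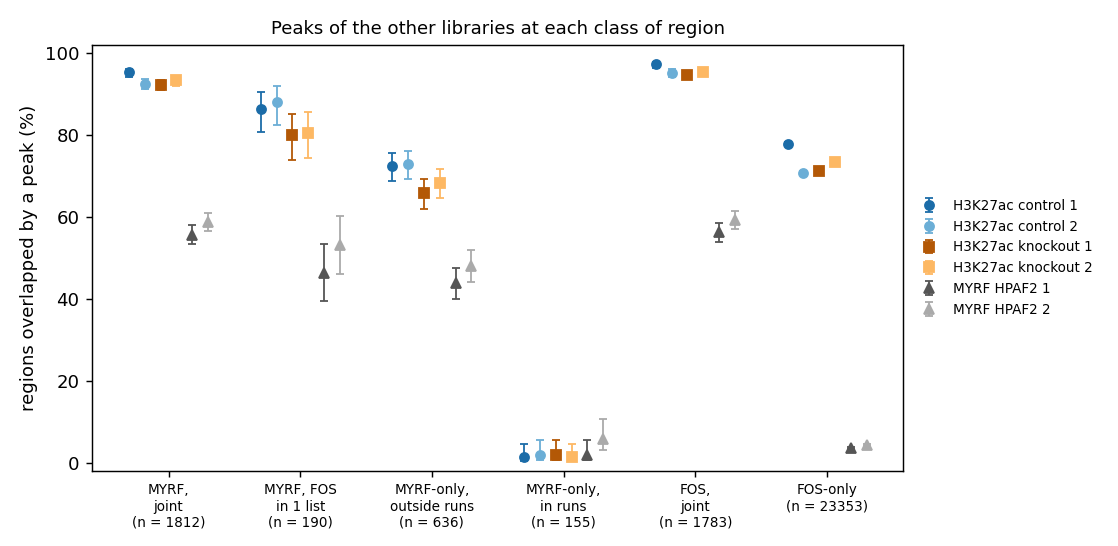
Share of regions overlapped by a peak (%) in each of 6 other libraries, for each class of MYRF and FOS region; points are libraries and bars 95% Wilson intervals. Joint regions lie over 92% in all 4 H3K27ac libraries, MYRF-only regions in runs at 5.81% or lower in all 6, and FOS-only regions at 3.50% and 4.27% in the HPAF2 MYRF libraries.

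Some MYRF regions of both classes had a near neighbour. Another MYRF region lay within 10 kb of 417 of 1812 (23.01%, 21.1 to 25.01) joint regions and of 236 of 791 (29.8%, 26.8 to 33.1) MYRF-only regions. Regions in runs made up 146 of those 236, and since the run rule picks gathered MYRF-only regions alone, no value without runs is compared here. The order turned with a −log10 q of at least 10, to 4.50 points for joint minus MYRF-only regions, and the difference of -6.82 points was -16.05 without MYRF replicate 1 and -22.3 without MYRF replicate 2. Chaining regions under 13 kb from the next (the exact gap was the one commonly used to stitch enhancers) gave 2075 single regions, 66.2% of them joint, 206 pairs, with 73.8% of regions joint, and 72 longer chains with 306 regions, of which 134 were joint (43.8%). Of these 306, 140 were regions of runs, which by the rule are not joint. Joint MYRF regions had a mean of 4.15 FOS regions with a summit within 50 kb, their own partner included, MYRF-only regions outside runs 2.11 and regions in runs 0.929.

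The 4 longest chains were runs, in DYNC1H1, CHD8, CSE1L and TOP2A. Next came 3 chains of 7 regions, of which those at CCAR1 (32149 bp) and at TPR (15186 bp) were also runs. The third spanned 22567 bp of chromosome 15 (70486585 to 70509151), with all 7 regions joint and with H3K27ac in both control lists, and 5 with a reproducible HPAF2 region, against 52.1% of all joint regions. MYRF there ranged from 3.30 to 14.9 in replicate 1 and from 4.53 to 16.9 in replicate 2, and no coding gene had an end within 50 kb. Chains of 4 joint regions and no others lay at HORMAD2, at BCL9L, a co-factor of beta-catenin, at BCL2L1, an inhibitor of apoptosis, at VMP1 and at PLEC. At KRT19, a ductal keratin, 4 of 6 regions were joint and 2 had FOS in 1 list. The joint share by chromosome was lowest, among the autosomes and X, on chromosome 14, at 73 of 162 regions (45.1%), where 46 regions were in runs. With runs left out it was 62.9% on chromosome 14, and chromosome 19 was then lowest, at 57.5%. The joint share was highest on chromosomes 18 (29 of 36, 80.6%) and 4 (84 of 106, 79.2%).

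MYRF-only sites lay nearer to genes than joint sites. Within 1 kb of an end of a coding gene lay 99 of 1812 (5.46%, 4.51 to 6.61) joint MYRF regions, 151 of 791 (19.1%, 16.5 to 22.0) MYRF-only regions and 37 of 190 (19.5%, 14.5 to 25.7) with FOS in 1 list. The share was 23.4% (20.3 to 26.9) for MYRF-only regions outside runs, 7.22% (6.89 to 7.55) for FOS-only and 5.55% (4.58 to 6.71) for joint FOS regions. The difference of joint from MYRF-only regions, -13.6 points, was -8.53 without MYRF replicate 2. The median distance to a gene end was 29.9 kb at joint, 14.7 kb at MYRF-only outside runs and 31.04 kb at FOS-only sites. A gene span held 46.8% of joint, 58.96% of MYRF-only regions outside runs and 51.7% of FOS-only regions.

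By the nearest gene end within 50 kb, joint sites were assigned to 908 of 20037 protein-coding genes (4.53%), MYRF-only sites outside runs to 470 (2.35%) and FOS-only sites to 7560 (37.7%). Both joint and MYRF-only sites outside runs were assigned to 72 genes, which is 15.3% of the latter. A gene span holding the summit, used first, gave 1048 genes with a joint site, and assignment within 5 kb gave 259. Most of the 908 genes, 736, had 1 joint site, 127 had 2, 34 had 3, 9 had 4 and 2 had 5.

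VMP1, an ER protein of autophagy, had 5 joint sites (MYRF 3.01 to 12.002 in replicate 1 and 3.44 to 13.6 in replicate 2). EPHA2, a receptor tyrosine kinase of epithelial cells, had 5 and a MYRF-only site besides, with its strongest at 23.4 and 11.8 for MYRF and 8.49 and 10.7 for FOS. HORMAD2, known as a meiotic protein, had 4, the strongest at the top of both MYRF lists (80.9 and 81.3) with FOS at 13.1 and 16.1. SMAD3 had 4 (MYRF 3.68 to 23.3 in replicate 1 and 4.64 to 23.7 in replicate 2), without the site at its internal start shown above, which lay over 50 kb from both gene ends. TGM2, a transglutaminase, had 4 (4.63 to 14.2 in replicate 1 and 3.10 to 14.6 in replicate 2) and PLEC, the cytoskeletal linker plectin, 4 (5.37 to 11.6 in replicate 1 and 3.71 to 13.8 in replicate 2). All joint sites counted for VMP1, EPHA2, HORMAD2, SMAD3 and TGM2 had H3K27ac in both control lists, and 3 of 4 did at PLEC.

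Gene lists were read against the 4.53% of all genes with a joint, 2.35% with a MYRF-only site outside runs and 37.7% with a FOS-only site. MYRF-only counts in the lists leave out runs too, and a gene can belong to several lists. Values given with a gene are fold enrichments in replicates 1 and 2 at its highest-ranking MYRF site. Of 22 genes of the EGFR family, its ligands and feedback regulators, 7 had a joint (31.8%), 4 a MYRF-only and 18 a FOS-only site. The joint site of PHLDA1 stood at 20.4 and 15.4 for MYRF, 15.2 and 18.2 for FOS. SPRY1, an inhibitor of receptor tyrosine kinase signals, had 9.87 and 10.5 for MYRF, 3.90 and 5.84 for FOS, and DUSP5, a phosphatase of ERK, 9.24 and 10.02 for MYRF, 5.69 and 5.86 for FOS. Of 14 AP-1 and related genes, 4 had a joint (28.6%), 2 a MYRF-only and 11 a FOS-only site. Joint sites stood near BATF (10.04 and 10.97 for MYRF, 6.07 and 6.05 for FOS), MAFF (7.36 and 6.58 for MYRF, 7.83 and 10.4 for FOS) and FOSL2 (5.86 and 4.74 for MYRF, 4.86 and 3.83 for FOS). FOS itself had a MYRF-only site 11870 bp from its end (chromosome 14, 75293877 to 75294333) at 15.5 and 12.4, with H3K27ac in both control lists and its nearest FOS region 15438.5 bp away. The gene MYRF held a FOS region (chromosome 11, 61756269 to 61757150) at 13.9 and 14.7 with MYRF in 1 list.

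Of 30 actin and focal adhesion genes, 8 had a joint (26.7%), 3 a MYRF-only and 26 a FOS-only site. The SEPTIN9 joint site (chromosome 17, 77254913 to 77255877) was among the strongest MYRF sites, at 74.1 and 72.7 for MYRF, 10.3 and 8.12 for FOS. MYH9, a non-muscle myosin, had 11.3 and 11.8 for MYRF, 6.31 and 10.1 for FOS, and TNS4, an adhesion adaptor, 9.76 and 8.09 for MYRF, 5.84 and 7.60 for FOS. Of 29 mucin and surface glycoprotein genes, 7 had a joint (24.1%), 4 a MYRF-only and 19 a FOS-only site. ITGA3, an integrin chain, had a joint site at 9.35 and 11.7 for MYRF, 15.9 and 19.7 for FOS, while the strongest sites of CDH17, an intestinal cadherin (20.1 and 17.2), and MET, the hepatocyte growth factor receptor (8.52 and 10.5), were MYRF-only. Of 25 epithelial and pancreatic transcription factors, 5 had a joint (20%), 4 a MYRF-only and 17 a FOS-only site. ELF3, an ETS factor, had 22.1 and 22.7 for MYRF, 3.89 and 6.11 for FOS, and KLF6 18.2 and 15.9 for MYRF, 12.1 and 11.4 for FOS, whereas HNF4G had a MYRF-only site 480 bp from its end at 6.42 and 8.65.

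Of 22 genes of the basal-like program of pancreatic cancer, 6 had a joint (27.3%), 2 a MYRF-only and 14 a FOS-only site, and of 21 of the classical program, 4 had a joint (19.05%), 1 a MYRF-only and 11 a FOS-only site. In the basal-like list FGFBP1, a carrier of fibroblast growth factors, stood at 16.7 and 20.2 for MYRF, 12.6 and 10.1 for FOS, and KRT7, a ductal keratin, at 7.03 and 9.51 for MYRF, 10.3 and 5.90 for FOS. In the classical list, KRT20 was followed by joint sites near CEACAM6, an adhesion molecule (9.24 and 5.77 for MYRF, 10.8 and 12.3 for FOS), and ST6GALNAC1, a sialyltransferase (4.62 and 5.43 for MYRF, 9.66 and 13.6 for FOS). Of 19 O-glycosylation genes, 4 had a joint (21.1%), 1 a MYRF-only and 15 a FOS-only site, among the joint ones B3GNT3 (17.7 and 19.1 for MYRF, 8.37 and 9.65 for FOS) and GALNT10 (10.5 and 9.40 for MYRF, 11.6 and 13.1 for FOS). Of 22 protease genes, 2 had a joint (9.09%), 1 a MYRF-only and 18 a FOS-only site, the joint ones near PLAU, the urokinase activator (10.5 and 12.1 for MYRF, 10.1 and 9.85 for FOS), and its receptor PLAUR (15.6 and 11.05 for MYRF, 7.11 and 9.65 for FOS).

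Of 30 ER chaperones and folding enzymes, 1 had a joint (3.33%), 2 a MYRF-only and 11 a FOS-only site, so the joint share was near that of all genes. The joint site was near TXNDC11 (6.02 and 6.18 for MYRF, 11.2 and 9.60 for FOS) and was lost when gene spans were used first, and the strongest MYRF site of the list, near the disulfide isomerase AGR3 (31.4 and 34.1), had FOS in 1 list. Of 20 unfolded protein response genes, 1 had a joint (5%), 1 a MYRF-only and 12 a FOS-only site. MBTPS2, a protease that releases membrane-bound factors, had the joint site, 40649 bp from its nearer end (27.3 and 23.4 for MYRF, 5.69 and 10.7 for FOS). ERN2, an ER stress sensor, had the MYRF-only site (12.502 and 11.6). Of 38 genes of ER translocation and transport, 3 had a joint (7.89%), 3 a MYRF-only and 18 a FOS-only site. The MYRF-only sites lay 336 bp from the end of SSR2, of the translocon-associated complex (20.8 and 21.1), 94 bp from SEC11A and 119 bp from LMAN2, a cargo lectin (6.82 and 8.65). Joint ones lay 26347 bp from the cargo receptor gene MCFD2 (21.7 and 17.3 for MYRF, 7.35 and 8.21 for FOS), 24132 bp from TMED10 (10.04 and 11.6 for MYRF, 2.996 and 4.91 for FOS) and 117 bp from SEC23B (3.68 and 3.26 for MYRF, 6.11 and 4.21 for FOS).

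Of 15 genes placed in the myelin list, RFFL among them, 4 had a joint (26.7%), 0 a MYRF-only and 3 a FOS-only site. The joint sites were assigned to RFFL (16.3 and 18.9 for MYRF, 5.81 and 9.37 for FOS), MAG, a myelin adhesion protein (7.36 and 8.44 for MYRF, 8.67 and 9.37 for FOS), MBP, the myelin basic protein (5.86 and 11.5 for MYRF, 4.89 and 8.38 for FOS), and UGT8, which makes myelin galactolipids (4.85 and 5.56 for MYRF, 4.06 and 4.51 for FOS). They lay 25519 bp (RFFL), 5405 bp (MAG), 18797 bp (MBP) and 34780 bp (UGT8) from the nearer gene end, those of RFFL and MBP inside the gene. Of 13 mesenchymal genes, 1 had a joint (7.69%), 0 a MYRF-only and 8 a FOS-only site, the joint one near TGFBI (7.17 and 5.61 for MYRF, 22.8 and 24.4 for FOS). Of 24 ribosomal protein genes, 1 had a joint (4.17%), 2 a MYRF-only and 8 a FOS-only site, the MYRF-only ones 166 bp from RPL3 and 163 bp from RPL4. With assignment within 5 kb, 18 in place of 54 listed genes had a joint site, and 1.29% of all coding genes did. The count was 0 in place of 7 in the EGFR list and 1 in place of 8 in the actin list. It was 1 in place of 4 in the myelin list and 0 in place of 1 in the unfolded protein response list. The counts are small and no list was tested.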

How the data were processed

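Of 11 samples, 10 have peak lists analysed here, and 1 HPAF2 input was not used here. Reads were trimmed, aligned and searched for peaks by the authors, and the submitters' processing notes name Trimmomatic 0.38, Bowtie2 2.2.6, SAMtools, MACS2 2.1.0.20150731 and GRCh38 (hg38). The deposited lists have no header. For every peak they give the authors' fold enrichment (a ratio to background), the deposited −log10 q and the summit offset. Which control served for CFPAC1 is not given in the sources used here, so folds only ranked peaks within a list. A peak absent from a list may lie just under its threshold, and the FOS lists are much longer than the MYRF lists.

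Regions, classes, distances and percentiles were computed in Python 3.11.15 with pandas 2.3.3, numpy 2.4.6 and scipy 1.17.1, and figures with matplotlib 3.10.9. Regions and overlaps differed in 0 cases from bedtools 2.31.1 and were tested on simulated intervals. Genes were 20037 protein-coding genes of the RefSeq table (GRCh38.p14), used by both ends because promoter windows, 35116 in all, covered 15843 of them. Named sites were the 10 joint sites with the highest lowest-of-4 percentile, the 8 strongest of each single class, 4 joint sites leaning to each factor, the 5 longest chains with ties, the 6 genes with most joint sites and up to 4 members per list. Sites of this rule without a gene are mostly given as counts. Lost sites, TM4SF4, KRT19, printed promoters, chains of joint sites, SEC23B, RPL4 and the genes FOS and MYRF were named outside it, as were the runs, after values were seen. Members and lists were chosen with earlier results of these data known. Alternatives tried were other overlap rules, a stricter q, other gene assignment and leaving out each replicate.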

Additional observations from a re-analysis of the deposited data

How the results depend on the processing

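Depth is unknown, groups hold 2 libraries, and each clone group is treated as 1 clone. No paired analysis was possible because no result comes from a test and replicate numbers do not tie libraries of different antibodies. Main values were 64.9% of MYRF and 6.80% of FOS regions joint, a mean of the 4 median summit distances of 84.8 bp, and differences of joint from single regions, in points, of 9.55 (MYRF percentile), 22.9 (FOS percentile), -6.82 (another MYRF region within 10 kb), -13.6 (gene end within 1 kb), 36.1 (H3K27ac in both control lists), -2.39 (H3K27ac lost) and 19.4 (HPAF2). Movement was judged against the SD over the 4 pairs of single libraries. These pairs share libraries and count every peak of a list as a region. Their SD is thus only a yardstick and does not measure the spread of the main values. Except for the share of FOS regions joint and the summit distance, the main values lay outside the range of the pairs. For MYRF regions joint that range was 53.6 to 60.5%. Overlap of 50% of the shorter region moved the values to -2.82 (H3K27ac lost) and 18.3 (HPAF2). Summits within 200 bp gave 53.5% (MYRF regions joint), 5.70% (FOS regions joint), 65.4 bp (summit distance), 6.85 (MYRF percentile), -12.2 (gene ends), 24.05 (H3K27ac), -1.80 (H3K27ac lost) and 13.4 (HPAF2). A −log10 q of at least 10 gave 50.7% (MYRF regions joint), 5.18% (FOS regions joint), 80 bp (summit distance), -4.53 (MYRF percentile, sign turned), 13.1 (FOS percentile), 4.50 (spacing within 10 kb, sign turned), -10.4 (gene ends), 10.9 (H3K27ac), -3.36 (H3K27ac lost) and 2.72 (HPAF2). Leaving out the runs, chosen after seeing the data, gave 68.7% (MYRF regions joint), 2.996 (MYRF percentile), 8.86 (spacing within 10 kb, sign turned), -17.96 (gene ends), 22.8 (H3K27ac) and 11.5 (HPAF2). The run rule removes gathered MYRF-only regions inside genes and no joint ones, which fixes the shift in the share of MYRF regions joint and in spacing and bears on gene ends. Values of these 10 results that were recomputed and are not named under a setting moved by less than that SD, and 3 that do not involve MYRF-only regions were not recomputed without runs. Leaving out each replicate in turn gave 52.5 to 70.1% (MYRF regions joint), 5.35 to 9.27% (FOS regions joint), 81 to 87.8 bp (summit distance), 7.98 to 19.5 (MYRF percentile), 21.6 to 31.2 (FOS percentile), -22.3 to -4.61 (spacing within 10 kb), -13.3 to -8.53 (gene ends), 31.3 to 53.1 (H3K27ac), -2.45 to -1.85 (H3K27ac lost), 17.7 to 28.1 (HPAF2). Of 338 listed genes, 54 had a joint site, 57 by gene span first and 18 within 5 kb. The causes of these shifts were not tested.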
